A study of Homo sapiens with 6 samples.

Results

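The cytosolic ribosomal protein genes encode the proteins of the 40S and 60S subunits of the ribosome that translates nuclear mRNA. They were taken by name: protein coding rows called RPL or RPS with a number and, in some, a suffix, together with RPLP0, RPLP1, RPLP2 and RPSA, and without the S6 kinases. The rule found 80 genes among 60131 rows of the RPKM table, and the same 80 among 28395 Entrez genes of the normalized count table. Of these, 48 belong to the large subunit and 32 to the small one, and 4 are paralogues of another member (RPL3L, RPL10L, RPL39L and RPS27L), which leaves 76 standard subunits. RNA of K562 cells, a human myeloid leukaemia line with erythroid and megakaryocytic features, was sequenced in 3 libraries with RUNX1 R320* and 3 libraries with wild-type RUNX1 (WT). R320* is a premature stop that cuts off the C-terminal region of RUNX1, a transcription factor of blood cell development. All the cells were kept in the same serum-containing medium without a drug or a time course. How R320* was introduced, whether the cells are 1 clone and whether the replicates are separate cultures is not stated in the labels, so the p-values describe the spread among these libraries alone.

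A ribosome holds nearly every one of these proteins once, and cells that grow fast spend a large share of their mRNA on them. Most of their mRNAs begin with a run of pyrimidines at the cap, the terminal oligopyrimidine tract, through which mTOR and LARP1 control their translation as a group. In blood the proteins are known from Diamond-Blackfan anaemia, in which loss of 1 copy of a ribosomal protein gene impairs red cell production, and from RPS14 in the 5q deletion of myelodysplastic syndrome. Several members also leave the ribosome: RPL5, RPL11 and RPL23 bind MDM2 and so act on p53.

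The starts of 6 members whose values are given in full are shown because they carry this shared feature at the annotated start. Those of RPS26 and RPS27L are shown because their annotated starts do not. In RPS26 a run of C and T begins a few bases past the annotated start, so its mRNA may still carry a tract if it starts there, which was not tested. Each line is 30 bases of RefSeq sequence (GRCh38.p14) on the transcribed strand, 15 before the annotated start and 15 from it on, and capitals mark the unbroken run of C and T that begins at the start.
RPLP0 (chr12:120201097-120201126, minus): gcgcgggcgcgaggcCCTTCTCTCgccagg
RPL41 (chr12:56116618-56116647, plus): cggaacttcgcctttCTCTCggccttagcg
RPS14 (chr5:150449725-150449754, minus): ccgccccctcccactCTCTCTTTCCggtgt
RPS27 (chr1:153990747-153990776, plus): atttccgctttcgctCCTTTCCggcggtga
RPS21 (chr20:62387088-62387117, plus): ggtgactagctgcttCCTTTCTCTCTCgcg
RPS3 (chr11:75399503-75399532, plus): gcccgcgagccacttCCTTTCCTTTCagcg
RPS26 (chr12:56041903-56041932, plus): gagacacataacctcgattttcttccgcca
RPS27L (chr15:63157463-63157492, minus): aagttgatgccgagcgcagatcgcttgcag

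The RefSeq table of starts held 63 of the 80 members, and 46 of the 63 (73.0%) had a start of this kind, a C followed by 4 bases that are each C or T. Among 15780 other protein coding genes the share was 5.97%, and over all 27305 genes of the table it was 5.14%. CCGGAA, the core that ETS factors bind, was found on either strand in 54.5% of the members' 77 windows of 300 bases, against 21.1% for other protein coding genes and 17.2% for all windows. TGTGGT, the core that RUNX factors bind, was found on either strand in 20.8% of the members' windows, against 11.2% for other protein coding genes and 13.1% for all windows. Both motifs were chosen with results of these data known, and a match describes letters in a window and not binding. Annotated snoRNA genes lay inside 29 members (36.3%, 60 snoRNA genes), against 2.86% of 15637 other protein coding genes with a read.

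Dividing each library's normalized counts by its smallest value gave totals of 30705499, 30064538 and 31306435 in R320* and 29058471, 30595857 and 30044565 in WT. These would be the reads on genes if that value, 0.953 to 1.05 normalized counts, stands for 1 read, which was not established for every library. RUNX1 itself had 5209, 5026 and 5261 normalized counts in R320*, against 2969, 2922 and 2908 in WT, a level that says nothing of the stop codon. All 12 K562 markers stood at 100 or more in every library, with sums of 150692 to 169717 in R320* and 124802 to 127812 in WT. Of 20 markers of other cell types, 8 were under 10 in every library (CD4, CD8A, MS4A1, CSF1R, CDH1, ALB, VWF and CDH5), 2 of them at 0 throughout, and 3 stood at 100 or more (CD3D, EPCAM and COL1A2). Their sums were 8549 to 8805 in R320* and 6687 to 6845 in WT, and the part of these markers in the results was not tested.

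Ribosomal protein mRNAs were among the most abundant of the cell. In RPKM, which is per transcript length and so allows levels to be compared between genes, 70 of the 100 highest rows were members. The 76 standard subunits had a median of 2074 RPKM over the 6 libraries and ranged 15.7-fold, between 382 and 6007, with 68 of them within 2-fold of that median. The highest were RPS18 (6007), RPS27 (5762), RPL41 (4368), RPS23 (4275), a protein of the decoding centre, and RPS2 (4009), a protein of the mRNA entry channel. The lowest was RPS26 (382), followed only by the paralogues, with RPS27L at 54.4, RPL39L at 27.4, RPL10L at 0.705 and RPL3L at 0.178 RPKM. RPL10L and RPL3L, known from testis and from heart and skeletal muscle, were thus barely detected in these cells.

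**Figure D1:**
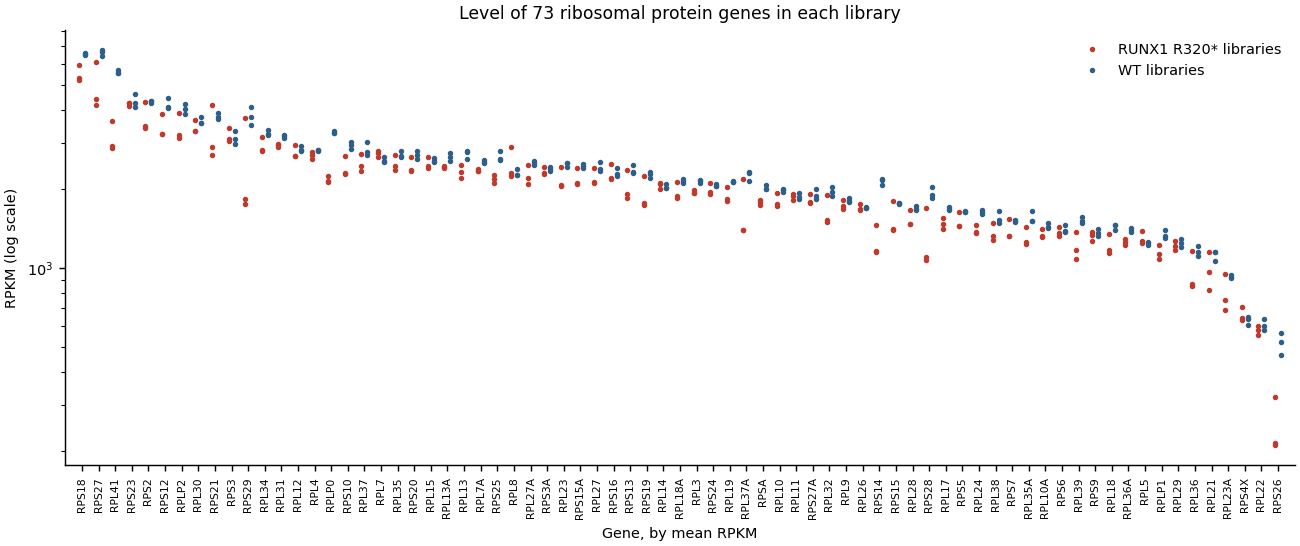
RPKM (log axis) of 73 of the 76 standard ribosomal protein genes in each of the 3 R320* libraries (left of each pair, red) and 3 WT libraries (right, blue), ordered by the mean over all 6. Most genes lie near 2074 RPKM, and the R320* points fall below the WT points most visibly for RPL41, RPLP0, RPS14 and RPS26. For RPS29 the point of R320* replicate 1 lies among the WT points, and the other R320* points lie below them.

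Together the 80 members took a smaller share of the normalized counts in R320*. The share was 7.06%, 6.56% and 6.70% in the R320* libraries, against 7.17%, 7.21% and 7.47% in the WT libraries. The lowest WT library stood above the highest R320* library, and R320* replicate 1 lay nearer to WT than to the other R320* libraries. The means were 6.77% ± 0.258 in R320* and 7.28% ± 0.163 in WT (SD, n = 3 each), a difference of -0.513 percentage points. Counting error (95% Wilson interval on the totals above) was at most 0.00940 points to each side of a share. Of the RPKM sum, the members took 22.9%, 21.0% and 21.0% in R320*, against 23.02%, 23.6% and 24.1% in WT. These are shares of the RNA sequenced, and in bulk samples fewer cells of a type and less RNA per cell cannot be told apart.

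Gene by gene, the decrease was small and broad. In a limma fit over 14299 genes of the normalized count table, 45 of 78 tested members were lower in R320* and 5 were higher at an adjusted p below 0.05, where 27.4% of all genes tested were lower and 26.4% were higher (53.7% in either direction). In the members that is 57.7% lower and 6.41% higher. Their median log2 fold change was -0.13, against 0.0062 over all genes tested, and the quartiles of the members were -0.24 and -0.05. The members are short, with a median coding length of 454.5 bases, against 1422 in other genes, and other short genes were lower too. At 400 to 500 bases the median log2 fold change was -0.12 in 21 members and -0.11 in 356 other protein coding genes. At 300 to 400 bases it was -0.19 in 16 members and -0.11 in 258 others. At up to 300 bases it was -0.31 in 11 and -0.19 in 194. Above 2000 bases other genes had 0.05. The part of length in the decrease was not tested. In 36 members every R320* library was below every WT library, which held for 30.2% of all genes tested, and in 5 every R320* library was above, which held for 29.6%. The 10 members with the largest decreases had log2 fold changes between -0.86 and -0.31. The large subunit had 28 lower and 3 higher of 47 (median -0.12), and the small subunit 17 lower and 2 higher of 31 (median -0.14). Under quantile normalization the median was -0.09, with 35 members lower (44.9%) and 8 higher (10.3%), against 24.8% and 29.3% of all genes. Without a variance trend on abundance, 17 members were lower (21.8%) and 4 higher (5.13%), against 24.1% lower and 22.7% higher over all genes. In either direction 26.9% of members were then called, against 46.8% of all genes, so the excess of lower calls over the background rests on that trend.

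The RPKM table gave the same direction with fewer calls. Of 79 tested members 28 were lower, where 16.8% of 17769 genes tested were lower, and limma called 0 higher, where 15.1% of genes were higher (31.9% in either direction). At an unadjusted p below 0.05, 48 were lower and 1 was higher. The median was -0.17, against 0.0053 over all genes tested. Every R320* value was below every WT value in 35 members, which held for 24.1% of all genes tested, and above it in 1, which held for 22.9%. Of the 78 members tested in each, 69 had the same sign, and 24 were called lower from counts and from RPKM, which is 53.3% of the lower calls from counts and 85.7% of those from RPKM. The count of members called lower from RPKM depended on single libraries. It was 62 without R320* replicate 1, 14 without R320* replicate 2, 16 without R320* replicate 3, 15 without WT replicate 1, 18 without WT replicate 2 and 14 without WT replicate 3. Without R320* replicate 1 that is 78.5% of the members, against 16.0% of all genes, and without any other single library 17.7% to 22.8% of the members, against 13.1% to 14.2% of all genes. With the RPKM columns rescaled to one sum, 22 members were lower and 2 higher, against 13.5% lower and 19.2% higher over all genes. With no variance trend 10 were lower (12.7%), against 15.1% of all genes.

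**Figure D2:**
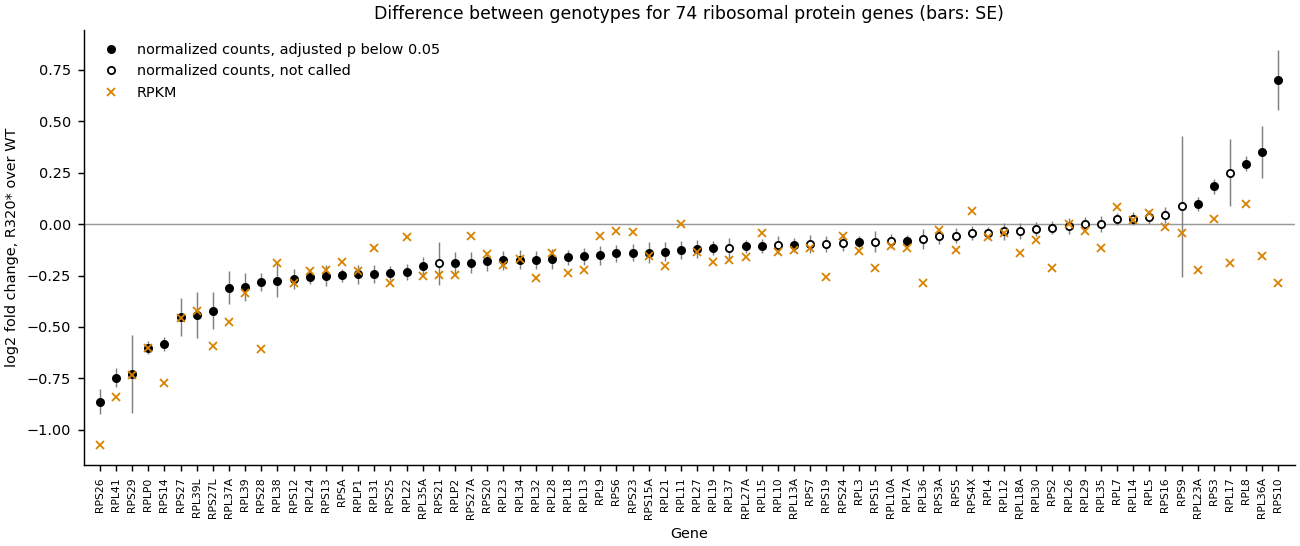
log2 fold change (R320* over WT) of 74 members tested in the normalized counts, with the standard error as a bar (filled: adjusted p below 0.05) and the RPKM value as a cross. Most points lie between -0.25 and 0, with RPS26, RPL41, RPS29, RPLP0 and RPS14 below -0.5, and the crosses of RPS10, RPL36A, RPL17 and RPL23A lie on the other side of 0 from their points.

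The members with the largest decreases included all 3 on chromosome 12, whose neighbours were lower too. RPS26, a small subunit protein at the mRNA exit channel, had 4842, 3929 and 4077 normalized counts in R320*, against 7621, 7471 and 8215 in WT. It fell by 0.86 on the log2 scale (SE 0.062, limma adjusted p = 5.54e-09). RPL41, which encodes the smallest protein of the ribosome, had 18484, 15942 and 16201 in R320*, against 28416, 28544 and 27820 in WT (log2 fold change -0.75, SE 0.046, limma adjusted p = 7.60e-10). For both genes the groups were well apart, with R320* replicate 1 the highest of its group. The 2 genes lie close together, at chr12:56041918-56044697 and chr12:56116633-56117967, and share most of their neighbours. RPLP0, the base of the stalk that recruits elongation factors, lies at chr12:120196699-120201111. It had 61796, 57742 and 59812 in R320*, against 91477, 90636 and 89727 in WT (log2 fold change -0.60, SE 0.033, limma adjusted p = 2.04e-10). All 3 fell in RPKM as well, with log2 fold changes of -1.07, -0.84 and -0.60 (limma adjusted p = 0.0035, 0.000746 and 4.43e-05, in the same order). In the normalized counts all 3 kept their calls with any 1 library left out.

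Of the 20 tested protein coding genes nearest to RPS26, 19 were lower (median -0.71), and the same held for RPL41. Around RPLP0, 18 of 20 neighbours were lower, with a median of -0.46. RPS14, on 5q at chr5:150442635-150449739, had 29242, 27241 and 28223 normalized counts in R320*, against 42654, 41353 and 42908 in WT (log2 fold change -0.58, SE 0.034, limma adjusted p = 4.18e-10; RPKM -0.77). Its 3 R320* values stood well below its WT values, while its neighbours had a median of -0.21, with 10 of 20 lower and 2 higher. At the other end stood RPL8, at the end of 8q, with a log2 fold change of 0.29 and a neighbour median of 0.53 (14 of 16 higher). RPS3, on 11q, had 0.18 and a neighbour median of 0.22 (9 of 20 higher). Across 70 members (the 6 with few normalized counts and the 4 paralogues left out), the member's log2 fold change and the median of its neighbours had a Spearman rho of 0.44, a description over genes that share the same 6 libraries and, in part, neighbours. Away from chromosome 12, 42 of 75 members were lower (56.0%) and 5 higher (median -0.12), where 27.4% of all genes tested were lower and 26.4% higher.

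**Figure D3:**
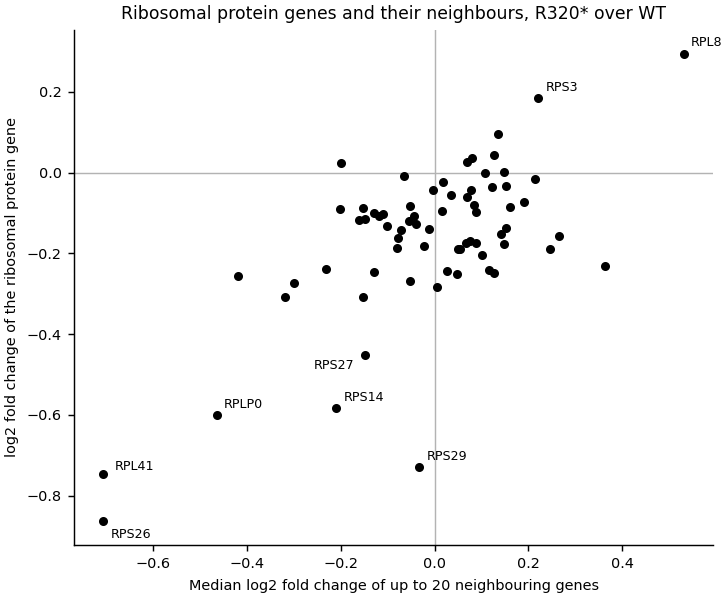
log2 fold change (R320* over WT, normalized counts) of 70 ribosomal protein genes against the median log2 fold change of the up to 20 nearest tested protein coding genes, 10 by start on each side. RPS26, RPL41 and RPLP0 on chromosome 12 lie low on both axes, RPL8 and RPS3 lie high on both, and RPS29 lies low while its neighbours are near 0.

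The second pattern was in the members with the shortest coding sequences, and there 1 R320* library stood apart. RPS29, a small zinc-binding protein of the 40S head, had 8211, 3950 and 3809 normalized counts in R320*, against 8055, 7661 and 9120 in WT. R320* replicate 1 was inside the WT range, and the other 2 R320* libraries were far below it. Over all libraries it fell by 0.73 on the log2 scale (SE 0.19, limma adjusted p = 0.00367), and without R320* replicate 1 the change was -1.09 (limma adjusted p = 3.5e-11). RPKM showed the same split with 3717, 1826 and 1749 in R320*, against 3769, 3510 and 4122 in WT, and the difference did not pass (limma adjusted p = 0.0889).

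RPS27, another zinc-binding 40S protein, had 21423, 14529 and 15208 normalized counts in R320*, against 22631, 22955 and 23293 in WT (log2 fold change -0.45, SE 0.094, limma adjusted p = 0.000676). Its groups did not overlap, but R320* replicate 1 lay close to WT. RPL37A, of the large subunit, had 18047, 13399 and 13319 in R320*, against 17601, 17965 and 19358 in WT (log2 fold change -0.31, SE 0.082, limma adjusted p = 0.00431). RPL38, which in mice is needed for the translation of Hox mRNAs, had 10671, 8030 and 7839 in R320*, against 10620, 10227 and 10949 in WT (log2 fold change -0.27, limma adjusted p = 0.00825, and 0.068 and 0.062 without R320* replicate 2 or 3). RPS21 had 14263, 9715 and 9685 in R320*, against 11879, 12160 and 13802 in WT, so that replicate 1 was the highest of all 6 libraries and the others were the lowest. RPS21 did not pass (log2 fold change -0.19, limma adjusted p = 0.135), and without R320* replicate 1 it was -0.38 (limma adjusted p = 6.4e-06). RPL39, at the exit of the peptide tunnel, had 5892, 4840 and 4575 in R320*, against 6023, 6214 and 6606 in WT (log2 fold change -0.31, limma adjusted p = 0.00121).

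**Figure D4:**
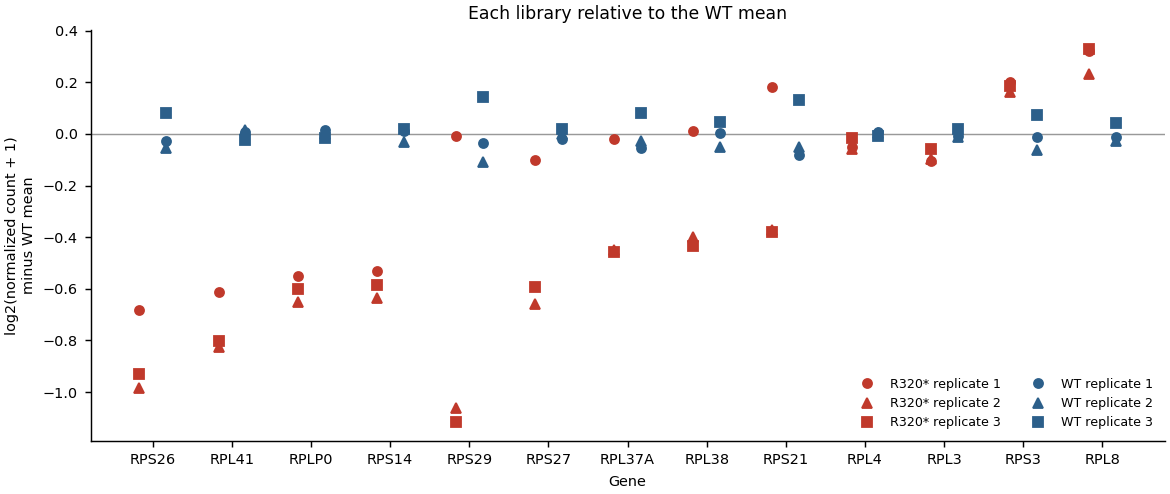
log2(normalized count + 1) of 13 members in each library minus the WT mean of the gene, with R320* libraries left of WT libraries and a marker shape per replicate. For RPS26, RPL41, RPLP0 and RPS14 all R320* libraries lie low together; for RPS29, RPS27, RPL37A, RPL38 and RPS21 replicate 1 lies near or above the WT libraries and replicates 2 and 3 lie low.

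R320* replicate 1 was above both other R320* libraries in 62 of the 80 members (77.5%), against 33.3% of all genes tested. It was inside the WT range for 27 members (33.8%), against 21.0% of all genes tested, while R320* replicates 2 and 3 were both below every WT library for 57 (71.3%), against 33.4% of all genes tested. The members' median relative to the WT mean was -0.03, -0.20 and -0.17 on the log2 scale in R320* replicates 1, 2 and 3, against -0.03, -0.01 and 0.04 in WT replicates 1, 2 and 3. Without R320* replicate 1, 56 members were lower and 4 higher in the normalized counts, where 26.4% of all genes tested were lower and 24.8% higher (51.2% in all), and the median was -0.18. In RPKM, 62 were lower and 1 was higher without it, where 16.0% were lower and 12.6% higher (28.5% in all), and the median was -0.22.

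The gap between R320* replicate 1 and the other R320* libraries was wider in shorter members, in length classes chosen after the values were seen. In the 11 members with a coding sequence of at most 300 bases, R320* replicate 1 exceeded the mean of the other R320* libraries by a median of 0.32 on the log2 scale, against 0.07 in 194 other genes of that length. In the 16 members of 300 to 400 bases the excess was 0.18, against 0.04 in 258 other genes, and in the 11 of 700 to 1000 bases it was 0.07, against -0.00051 in 1448 other genes. Relative to WT, R320* replicates 2 and 3 had a median of -0.42 in the shortest members, against -0.21 in other genes of that length. In the members of 700 to 1000 bases that median was -0.07, against -0.02 in other genes. R320* replicate 1 had -0.09 in the shortest members, against -0.11 in other short genes. Over 70 members, coding length had a Spearman rho of -0.61 with the difference of R320* replicate 1 from replicates 2 and 3, and of 0.58 with the difference of those 2 from WT. With the difference of R320* replicate 1 from WT it was 0.13. Over 10530 other protein coding genes the first of these was -0.018. Of those genes 4106 had 1000 to 2000 bases and 3232 had more than 2000, while only 2 tested members exceeded 1000 bases. The 2 values of rho thus cover unlike lengths. The shortest members made up 0.444%, 0.347% and 0.353% of normalized counts in R320*, against 0.471%, 0.468% and 0.503% in WT. Fragment lengths and RNA quality were not analysed here, and their part in this split was not tested.

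**Figure D5:**
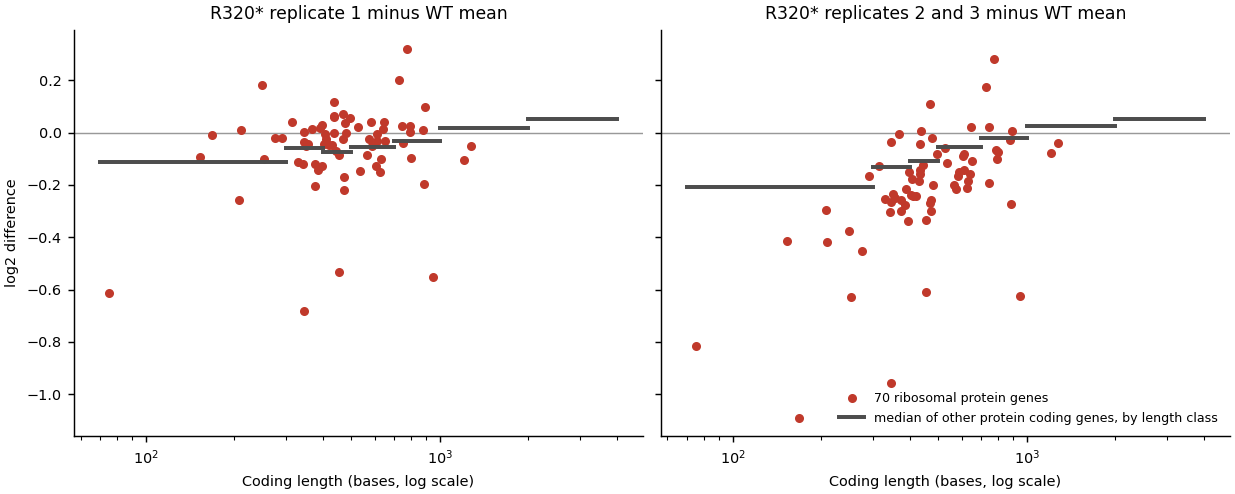
log2 difference from the WT mean against coding length (bases, log axis) for 70 ribosomal protein genes (points), with the median of other protein coding genes in each length class (bars), for R320* replicate 1 (left panel) and for the mean of R320* replicates 2 and 3 (right panel). Short members lie well below the bars in the right panel, where those of at most 300 bases have a median of -0.42, and near them in the left panel, where they have -0.09.

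Among the remaining small subunit proteins, RPS28, RPS12, RPS25 and RPSA had log2 fold changes between -0.28 and -0.24 in the normalized counts, passed in both tables and kept the call with any 1 library left out. The neighbours of RPS25 were lower too, with a median of -0.23 (15 of 20 lower, 1 higher). Those of RPS12 had a median of -0.05 (7 lower, 6 higher). RPS12, which lies at the beak of the 40S subunit, had 29974, 25854 and 25981 in R320*, against 32280, 31883 and 34116 in WT. RPSA, also known as a laminin receptor precursor, had 37758, 36008 and 35528 in R320*, against 43255, 42924 and 43622 in WT (log2 fold change -0.25, SE 0.033, limma adjusted p = 6.87e-06). RPS6, the substrate of the S6 kinases, had 36187, 32930 and 32026 in R320*, against 35971, 37651 and 37882 in WT, and was lower in the counts (-0.14) with an RPKM value of -0.03 (limma adjusted p = 0.609). RPS2, the member with the most normalized counts in R320*, had 88398, 84557 and 87748 in R320*, against 85652, 87438 and 90650 in WT. Its groups overlapped (log2 fold change -0.02, SE 0.034, limma adjusted p = 0.704).

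In the large subunit, 3 of the 5 stalk genes were lower, with a median of -0.19. Among all members tested 57.7% were lower, and among all genes tested 27.4%. RPLP1 and RPLP2, the acidic proteins that sit on RPLP0, had log2 fold changes of -0.24 (limma adjusted p = 0.000282) and -0.19 (limma adjusted p = 0.0075). For RPLP2 the call was lost without R320* replicate 2 (limma adjusted p = 0.066) and without WT replicate 3 (limma adjusted p = 0.059). RPL10 and RPL12 at the stalk base had -0.10 and -0.04 and did not pass. Of the 3 proteins that bind MDM2, RPL23 (-0.18) and RPL11 (-0.13) were lower in the counts, and RPL5 had 0.04, with 32036, 30340 and 29672 in R320* against 29416, 30246 and 30042 in WT. In RPKM the 3 had limma adjusted p-values of 0.0642, 0.99 and 0.403 in that order, and RPL11 lost its call without R320* replicate 2 (limma adjusted p = 0.15) and without WT replicate 3 (limma adjusted p = 0.13). RPL24, RPL31 and RPL35A had -0.26, -0.24 and -0.21 and were lower in both tables. The neighbours of RPL24 had a median of -0.42 (12 of 20 lower, 4 higher), and those of RPL31 had 0.12 (6 lower, 6 higher). RPL3 and RPL4, the members with the longest coding sequences among those expressed, had -0.09 and -0.04. RPL22, which binds RNA outside the ribosome, had 13904, 12581 and 12770 in R320*, against 15338, 15066 and 15673 in WT (log2 fold change -0.23, SE 0.039), while its RPKM value was -0.06 and was not called.

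Of 21 members known from Diamond-Blackfan anaemia, 12 were lower (57.1%) and 2 higher in the normalized counts (median -0.12), where 27.4% of all genes tested were lower and 26.4% higher. The 2 were RPL8 and RPS10, and the count of RPS10 is uncertain. Among all members tested, 57.7% were lower and 6.41% higher in the normalized counts (median -0.13), shares near those of this list. In RPKM 7 of the 21 were lower (33.3%), against 35.4% of all members tested and 16.8% of all genes tested. RPS19, the gene most often mutated in that disease, had 30590, 27268 and 28129 normalized counts in R320*, against 30192, 30195 and 31387 in WT. Its R320* replicate 1 lay within the WT range, and the difference did not pass (log2 fold change -0.10, limma adjusted p = 0.0533; -0.14 and 0.0014 without that library). RPS26, RPS29 and RPS27 of this list are described above, and RPS28 had 7839, 7346 and 7922 in R320*, against 9363, 8892 and 9855 in WT (log2 fold change -0.28, limma adjusted p = 3.4e-05).

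The paralogues were set beside their standard partners. RPL39L, known for a ribosome of male germ cells in mice, had 340, 326 and 395 normalized counts in R320*, against 510, 422 and 513 in WT (log2 fold change -0.44, SE 0.11, limma adjusted p = 0.00294), and RPL39 fell by 0.31 on the log2 scale. RPS27L, a p53 target, had 697, 601 and 548 in R320*, against 780, 804 and 879 in WT (log2 fold change -0.42, SE 0.09, limma adjusted p = 0.00089), and RPS27 fell by 0.45 on the log2 scale. Neither group pair overlapped, and both paralogues were also lower in RPKM (-0.42 and -0.59). RPL10L had 9.97 to 29.3 normalized counts and was not called, and RPL3L had no count in 5 of the 6 libraries. Outside the name rule, RPL7L1 and RPL22L1 were higher (0.27 and 0.35), RPL26L1 was lower (-0.32), and RPL36AL had 0.11 and did not pass. RPL22L1, a paralogue of RPL22, had 848, 745 and 711 in R320*, against 578, 627 and 601 in WT. Thus RPL22 was lower and RPL22L1 higher in the normalized counts, and in RPKM neither passed (limma adjusted p = 0.377 for RPL22 and 0.0679 for RPL22L1).

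Only 5 members were higher in R320*, and none of them was called higher in RPKM. RPL8, a protein near the peptidyl transferase centre, had 62313, 58660 and 62672 normalized counts in R320*, against 49411, 48914 and 51368 in WT (log2 fold change 0.29, SE 0.035, limma adjusted p = 2.28e-06; RPKM 0.10, limma adjusted p = 0.478). RPS3, of the mRNA entry channel, had 61602, 60041 and 60959 in R320*, against 53190, 51352 and 56345 in WT (log2 fold change 0.18, SE 0.036, limma adjusted p = 0.000379; RPKM 0.02, limma adjusted p = 0.793). For both genes every R320* count was above every WT count. RPL23A, at the tunnel exit, had 0.10 (limma adjusted p = 0.0205), which was lost without R320* replicate 2 (0.097) or WT replicate 1 (0.11), and -0.22 in RPKM without a call.

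The other 2, RPS10 and RPL36A, were called in opposite directions by the tables. RPS10 had 194, 229 and 225 normalized counts in R320*, against 130, 131 and 137 in WT (log2 fold change 0.70, SE 0.15, limma adjusted p = 0.000711). In RPKM it had means of 2413 ± 223 in R320* and 2938 ± 94.2 in WT (SD, n = 3 each), with a log2 fold change of -0.29 (limma adjusted p = 0.0171). RPL36A had 0.35 in the counts (limma adjusted p = 0.0289, and 0.13 without R320* replicate 1, 0.052 without R320* replicate 3, 0.11 without WT replicate 1 and 0.057 without WT replicate 2) and -0.15 in RPKM (limma adjusted p = 0.0115). Both belong to 6 genes, among them RPS9, RPS18 and RPL17, noticed after the values were seen, that held under 1000 normalized counts in WT and over 500 RPKM. RPS18, the highest of all members in RPKM (5475 ± 400 in R320*, 6539 ± 58.4 in WT), had 1.96 to 12.6 normalized counts and was below the filter of that table. In RefSeq, RPS10, RPL17 and RPL36A overlap read-through genes (RPS10-NUDT3, RPL17-C18orf32 and RPL36A-HNRNPH2), and no other protein coding gene overlaps RPS9 or RPS18. The counts of these 6 are uncertain. Without them 45 of 73 members were lower (61.6%) and 3 higher (median -0.14), against 27.4% lower and 26.4% higher over all genes tested.

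Ribosomal protein genes have many processed pseudogenes, copies of the mRNA in the genome with which reads can be shared. The RPKM table held 1123 pseudogene rows for 75 members, of which 719 were at 0 in every library, and the rest summed to 1.30% of the RPKM of the members. RPL23AP42 made up most of that, with a mean of 1363 ± 141 RPKM in R320* and 1051 ± 60.9 in WT (log2 fold change 0.37, limma adjusted p = 0.0142). It was thus listed above its parent RPL23A, which had 798 ± 134 in R320* and 924 ± 12.5 in WT. For RPL23A the 2 tables differ in sign, and its level is uncertain for this reason. RPL22, at a mean of 592 RPKM, had 225 RPKM in its pseudogene rows, of which RPL22P1 held 220. The level of RPL22 is therefore uncertain too. The part of shared reads in its difference between the tables, and in its contrast with RPL22L1, was not tested.

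Genes that share a start or a function with the members were set beside them. Members with an oligopyrimidine start had 29 lower and 3 higher of 45 tested (median -0.16). Of 17 with another annotated start 10 were lower (median -0.12). That is 64.4% and 58.8% lower, where 27.4% of all genes tested were lower and 26.4% higher. The 17 include RPS26, with a run of C and T just past its annotated start. Of the 18 translation factors and other genes known for oligopyrimidine mRNAs, 10 were lower (55.6%) and 4 higher (median -0.11). EEF1A1, which brings tRNA to the ribosome, had 410061, 414910 and 407341 in R320*, against 459671, 465818 and 454685 in WT (log2 fold change -0.16, SE 0.033, limma adjusted p = 0.000545). Lowest in the list were NAP1L1 (-0.80), HNRNPA1 (-0.45) and EIF4B (-0.38), which like RPS26, RPL41 and RPLP0 lie on chromosome 12. The 4 higher were VIM (0.54), EEF1D (0.50), EIF3H (0.25) and PABPC1 (0.16), and all 4 were higher in RPKM too. Of these, EEF1D, EIF3H and PABPC1 lie on chromosome 8, as does RPL8, while EIF3E on that chromosome had -0.06 and did not pass. EEF1D had 455, 484 and 584 normalized counts in R320*, against 297, 292 and 525 in WT, so its groups overlapped. Its mean in WT was 391 RPKM, and so few counts at that level are uncertain. The ribosomal proteins FAU and RACK1, whose names lie outside the rule, were lower (-0.14 and -0.34). RACK1 and RPS14 both lie on chromosome 5.

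Of 36 assembly factors and RNA polymerase I genes 23 were higher (63.9%) and 3 lower in the normalized counts (median 0.27), where 26.4% of all genes tested were higher and 27.4% lower. The 3 lower were NHP2 (-0.29), NPM1 (-0.24) and NOP56 (-0.10), of which NPM1 alone was lower in RPKM. NOP10 had -0.12 and did not pass. Of 75 mitochondrial ribosomal proteins 24 were higher (32.0%) and 12 lower (16.0%), with a median of 0.04, a share of higher calls near that of all genes. GAR1, of the snoRNP that modifies ribosomal RNA, had 3459, 3512 and 3486 in R320*, against 2328, 2420 and 2345 in WT (log2 fold change 0.56, SE 0.042, limma adjusted p = 1.04e-08). POLR1A, the largest subunit of RNA polymerase I, had a log2 fold change of 0.53 and was higher in RPKM too. Of 10 genes listed as regulators 3 were higher and 3 lower in the normalized counts (median 0.03), where 26.4% of all genes tested were higher and 27.4% lower. MYC had the largest change (1.15, limma adjusted p = 3.12e-14; RPKM 1.09, limma adjusted p = 4.77e-06). GABPA (0.22) and RPS6KB1 (0.14) were higher too. LARP1, which binds oligopyrimidine mRNAs, was lower (-0.17, limma adjusted p = 0.000442), as were MAX (-0.25) and RPS6KA3 (-0.39). In RPKM LARP1 and RPS6KA3 were lower too, while MAX had the other sign and did not pass (0.12, limma adjusted p = 0.517). MTOR did not pass (0.09, limma adjusted p = 0.0716), nor did YY1, RPS6KA1 and RPS6KB2. The part of these genes in the decrease of the members was not tested.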

How the data were processed

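RNA sequencing of 3 R320* and 3 WT libraries of K562 cells was used. The deposited signal values are normalized read counts for Entrez genes, divided by 1 factor per library by the authors. Every value was a whole multiple of its library's smallest value (within 1e-06). The deposited RPKM values are per Ensembl gene, and their depth is unknown. Their columns summed to 721735 to 786389. The hg38 build and the tools HISAT2, featureCounts, Salmon and DESeq2 are named in the submitters' processing notes. Not given in the sources used here are their versions, the tool behind each table, poly(A) selection and the use of strand.

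Differences were tested with limma 3.58.1 (R 4.3.3), with a variance trend on abundance and Benjamini-Hochberg adjustment over all genes tested. The fits used log2(normalized count + 1) for genes at 10 or more in at least 3 libraries and log2(RPKM + 0.1) for genes at 0.5 or more in at least 3 libraries, so fold changes of low genes are understated. RPL3L passed neither filter, and RPS18 passed in RPKM only. The scripts were tested on simulated data. Intervals cover counting error only.

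Gene positions and starts came from RefSeq (GRCh38.p14), where the start windows run from 250 bases before to 50 after a start, and coding lengths from GENCODE annotation of the same build. A neighbour is 1 of the 10 nearest tested protein coding genes on each side by start, members left out. Named genes were the 10 largest falls and up to 10 rises among the calls, the 5 highest and 5 lowest levels, members below the filter, paralogue pairs, listed disease and functional groups, and opposite calls between tables. RPS21, RPL38, RPS6, RPS12, RPSA, RPS25, RPL22, RPL24, RPL3 and RPL4 were added after their values were seen. The members and lists were chosen with earlier results of these data known. Other scalings, filters, pseudocounts and left-out libraries were tried. The planned count tests were not run, because the value of 1 read lay too near 1 in some libraries for the recovered reads to be accepted as such. A few members are not reported here by name, and plots that label every gene leave them out.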

Additional observations from a re-analysis of the deposited data

How the results depend on the processing

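The normalized counts gave 45 members lower and 5 higher. Without an intensity trend 17 were lower and 21 called in all (26.9%, against 46.8% of all genes). Quantile normalization gave 8 higher, and with it RPL15 had a log2 fold change of 0.018 (limma adjusted p = 0.613). Leaving out 1 library gave 31 to 56 lower, 3 to 5 higher (3 without WT replicate 1) and 35 to 60 called, a median of -0.18 to -0.09, and a share difference of -0.656 to -0.406 points. The RPKM table gave 28 lower, 0 higher and 28 called, a share difference of -1.93 points, and the other sign for RPL17 (-0.19), RPL23A (-0.22), RPL36A (-0.15) and RPS10 (-0.29). Within RPKM, leaving out 1 library gave 14 to 62 lower, 0 to 1 higher and 14 to 63 called, no intensity trend gave 10 lower and called (12.7%, against 28.2% of all genes called), and columns rescaled to one sum gave 2 higher. The cause of these changes was not tested. Pseudocounts, filters on low values and TMM scaling left each count of members within 1.5 times, but with no filter in RPKM 16.5% of all genes were called, against 31.9%. Of the 50 called members, 33 kept direction and call with any 1 library left out, and 16 under every setting run and in RPKM, among them RPS26, RPL41, RPLP0, RPS14, RPS28, RPLP1, RPL24 and RPSA. The replicate numbers did not pair the samples: deviations of same-numbered libraries had r = 0.03, -0.003 and -0.003. With the replicate block 49 members were lower and 5 higher in counts, and 21 lower in RPKM. The planned edgeR and DESeq2 alternatives were not run. RPL3L and RPL10L had too few counts to resolve a difference.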
